A study of Mus musculus with 6 samples.

Results

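Fibroblast growth factor (FGF) receptors and ligands were followed in C2C12 cells, a mouse myoblast line, in which PRDM2 had been knocked down. The 8 genes were fixed by name: the receptors Fgfr1, Fgfr2, Fgfr3, Fgfr4 and Fgfrl1 and the ligands Fgf2, Fgf7 and Fgf21. Every probe set that the platform annotation assigns to exactly 1 of these symbols was taken, which gave 19 probe sets for the 8 genes, out of 18193 genes that have a probe set of their own. The PRDM2 KD S48 group (3 arrays) was a stable pool of C2C12 carrying an shRNA to PRDM2, a member of the PR/SET family of zinc finger regulators. The GFP S48 group (3 arrays) was a stable pool carrying an shRNA against GFP as the control. Cells of both groups were grown with 20% fetal calf serum and then held for 48 hours in suspension in methylcellulose with the same serum, which the labels describe as an arrest in G0. Each shRNA is described as 1 stable pool, and the labels do not say whether replicates were transfected separately, so p-values measure the spread between these arrays.

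FGFs are secreted proteins. Most act near their source, held by heparan sulfate, whereas Fgf21 is a hormone that needs the co-receptor beta-Klotho (Klb). A bound receptor tyrosine kinase passes the signal through the adaptor Frs2 to Ras and the kinase ERK, and the cell answers with feedback inhibitors such as the Sprouty proteins. In skeletal myoblasts FGF signalling through Fgfr1 is known for sustaining proliferation and holding back differentiation, and Fgf21 is known as a stress hormone of liver and muscle.

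Median intensity was 10.6 to 12.1 on the 6 arrays, and between 55.1% and 58.2% of each array's probe sets read under 16, the offset added before taking log2. Precision is limited by the number of arrays. Prdm2 itself read 58.0, 51.5 and 29.0 on the PRDM2 KD S48 arrays at its brightest probe set, against 86.2, 73.6 and 47.1 on the GFP S48 arrays (log2 difference -0.51, SE 0.22, limma adjusted p = 0.44), and the groups overlapped. Its other 2 probe sets were not called either, with differences of -0.75 (limma adjusted p = 0.475) and 0.097 (limma adjusted p = 0.773). The arrays also differed in control signals. The ratio of the 5' to the 3' beta-actin probe set, lower where RNA is degraded or labelled in part, was 0.299, 0.399 and 0.549 on PRDM2 KD S48 arrays 1 to 3 and 0.302, 0.723 and 0.114 on GFP S48 arrays 1 to 3. The same ratio for Gapdh was 0.0992 on GFP S48 array 3 and 0.704 to 1.14 on the other 5 arrays. Dap, a bacterial control RNA added before labelling, averaged 21.2 on PRDM2 KD S48 array 3 and 16.1 on GFP S48 array 3, while the remaining 4 arrays had 93.1 to 161. Member differences are also given for these 4 alone (high-spike arrays) and for the pair numbered 3 alone (low-spike arrays). This split was made from the Dap signal.

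Differences below are PRDM2 KD S48 minus GFP S48 in log2(intensity + 16) after quantile normalization, tested with limma over all 45037 probe sets that are no array controls. A probe set was called at a Benjamini-Hochberg adjusted p under 0.05. Of the 19 probe sets, 1 was called higher (Fgf21) and 1 lower (Fgf7), which is 10.5% of them. Over all probe sets 2.43% were called, 1.41% higher and 1.01% lower. The members, and the lists used below, were chosen with earlier results of these data known, so such shares are a description only. The median difference of the 19 was 0.02, against -0.0057 over all probe sets. Both calls were among the 4 probe sets of ligands, and 0 of the 15 probe sets of receptors was called by limma, with 1 at an unadjusted p under 0.05. Over all probe sets 11.7% had such a p, and 3 of the 19 members did. The deposited values of the groups did not overlap for 5 of the 19 probe sets, or 26.3%, against 17.1% of all probe sets. An exact permutation test of 3 arrays against 3 cannot give a p below 0.1, and Fgf21, the called Fgf7 probe set and the brightest Fgfr1 probe set had two-sided exact p of 0.1, 0.1 and 0.3. In bulk RNA, fewer cells making a transcript and less of it per cell cannot be told apart.

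**Figure D1:**
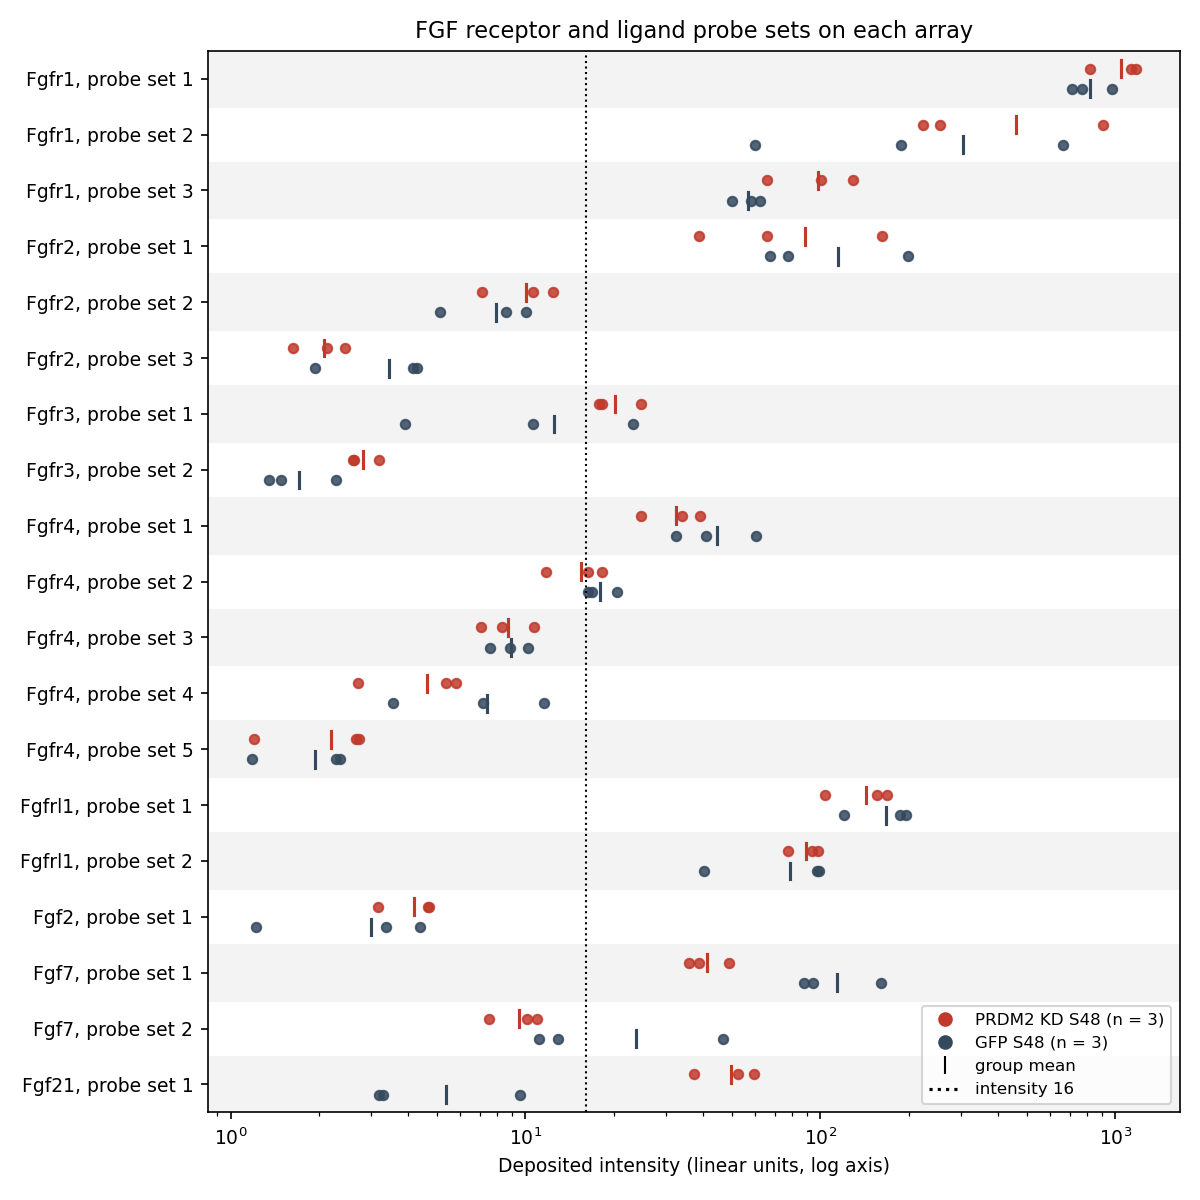
Deposited intensity of the 19 probe sets (log axis) on each array, with PRDM2 KD S48 above GFP S48 in every row, vertical bars at the group means and a dotted line at 16. Probe sets of a gene are numbered from the brightest. The groups stand apart for Fgf21 and for Fgf7 probe set 1, whereas the receptor rows mostly overlap.

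Fgf21, the endocrine FGF, rose. Its only probe set (1422916_at) read 59.5, 52.6 and 37.3 on the PRDM2 KD S48 arrays, against 9.62, 3.29 and 3.18 on the GFP S48 arrays. All knockdown values thus lay above 16 and all control values below it. The mean intensity was 49.8 ± 11.3 in PRDM2 KD S48 and 5.36 ± 3.69 in GFP S48 (SD, n = 3 each), a ratio of 9.29 between the deposited means. After the offset the log2 difference was 1.59 (SE 0.169, 95% interval 1.18 to 2.00, limma adjusted p = 0.00828), a 3.02-fold rise. Because the control signal was dim, the size depended on the offset: it was 3.08 with an offset of 1 and 0.69 with an offset of 64, and the call held with both. Leaving out any 1 array gave limma adjusted p of 0.0206 to 0.0497. The difference was 1.66 on the high-spike arrays and 1.47 on the low-spike arrays.

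The promoters of Fgf21 and Fgf7 are shown because these are the members that changed. Both are 300 bases of GRCm38.p6 from RefSeq, written 5' to 3' along the gene's strand from 250 bases before the start of the gene to 50 after it. They lie at chr7:45615441-45615740 on the minus strand for Fgf21 and chr2:126034408-126034707 on the plus strand for Fgf7. Capitals mark matches, on either strand, to TGATGCAA (the core of the amino acid response element that ATF4 binds), to the TATA box TATAAA and to the E-box CANNTG, the family of sites that myogenic factors bind.
Fgf21: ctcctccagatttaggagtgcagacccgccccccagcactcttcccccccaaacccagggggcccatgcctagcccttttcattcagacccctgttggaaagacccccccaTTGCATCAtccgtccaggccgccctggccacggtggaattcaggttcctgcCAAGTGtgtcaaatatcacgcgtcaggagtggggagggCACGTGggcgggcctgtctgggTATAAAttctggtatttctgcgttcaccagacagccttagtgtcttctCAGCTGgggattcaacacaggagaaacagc
Fgf7: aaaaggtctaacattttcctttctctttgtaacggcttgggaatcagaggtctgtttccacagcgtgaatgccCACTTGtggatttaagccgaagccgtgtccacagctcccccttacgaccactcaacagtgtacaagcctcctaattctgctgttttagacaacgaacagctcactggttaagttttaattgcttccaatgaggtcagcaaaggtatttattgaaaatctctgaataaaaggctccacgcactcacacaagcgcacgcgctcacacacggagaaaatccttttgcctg

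The Fgf21 window held TGATGCAA on the opposite strand (read as TTGCATCA) at -139, a TATAAA at -28 and E-boxes at -88, -50 and 20, the last of the form CAGCTG. Of 32851 promoter windows of this length, 0.895% held TGATGCAA, 13.6% TATAAA, 16.3% CAGCTG and 72.3% any CANNTG, which includes CAGCTG. The Fgf7 window held 1 E-box, at -177, and neither TGATGCAA nor TATAAA. Of the 8 members, 7 had a promoter sequence in the table, and no other member's window held TGATGCAA. Since ATF4 is known to induce Fgf21, a match to TGATGCAA in its window could be foreseen, and the shares are a description only. A match describes the letters and was not tested as a binding site.

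Genes of the integrated stress response, the programme by which ATF4 is known to induce Fgf21, moved in both directions. Among its 9 measured genes Atf5 rose and Atf3 fell, which is 22.2% called against 3.92% of all genes, the other 7 were not called, and 2 of the 9 differences were above 0. Atf5, an ATF4-related transcription factor, read 366, 277 and 420 in PRDM2 KD S48 and 179, 158 and 160 in GFP S48, a rise of 0.93 (limma adjusted p = 0.0472). Its call was lost without any 1 of PRDM2 KD S48 arrays 1 and 3 or the GFP S48 arrays, with adjusted p of 0.105 to 0.187, and also with an offset of 1 (0.163) or 64 (0.0867) and with the Gapdh ratio as a covariate (0.0764). Atf3, a stress-induced member of the same family, went the other way. It read 27.1, 43.7 and 19.6 in PRDM2 KD S48 and 262, 134 and 146 in GFP S48, a fall of 2.12 on the log2 scale (limma adjusted p = 0.0158) whose adjusted p was 0.0589 to 0.086 without PRDM2 KD S48 array 1 or 3 or GFP S48 array 3. Atf4 read 664, 625 and 993 in PRDM2 KD S48 and 726, 617 and 531 in GFP S48, and the groups overlapped (log2 difference 0.19, 95% interval -0.31 to 0.70, limma adjusted p = 0.838). ATF4 is known to be controlled largely at translation, which arrays do not measure. Atf4 was chosen for this role after its values were seen.

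Markers of differentiating muscle moved with Fgf21. All 7 of them were called higher, against 2.28% of all genes. Their summed intensity was 6414 to 7975 on the PRDM2 KD S48 arrays and 138 to 330 on the GFP S48 arrays. Myog (myogenin), which drives myoblasts into terminal differentiation, read 461, 448 and 763 in PRDM2 KD S48 and 44.1, 15.8 and 16.5 in GFP S48. PRDM2 KD S48 array 3 had the highest Myog value and the lowest Fgf21 value of its group, while GFP S48 array 1 had the highest of both in its group. The part of differentiation in the Fgf21 result was not tested. Of 7 myoblast markers 1 rose (Vcam1, by 2.36) and 1 fell (Myf5, by 1.29), which is 28.6% called against 3.92% of all genes. In limma 3 of the 7 had an unadjusted p under 0.05 (42.9%, against 16.2% of all genes). These included Itga7, whose difference of 0.63 did not pass (limma adjusted p = 0.0619). The muscle intermediate filament gene Des averaged 789 ± 147 in PRDM2 KD S48 and 977 ± 125 in GFP S48 (SD, n = 3 each). Of the hepatocyte markers, which bear on the best known source of Fgf21, Alb stayed at or below 5.67 on all arrays. Apoa1 read 23.1, 17.7 and 36.0 in PRDM2 KD S48 and 12.4, 12.1 and 11.9 in GFP S48, without overlap. Its difference of 0.54 did not pass (limma adjusted p = 0.234). The summed level of the 3 hepatocyte markers was 29.6 to 44.8 in PRDM2 KD S48 and 21.8 to 27.4 in GFP S48. None of 20 measured markers of 6 other cell types was called by limma, 3 of the 20 had an unadjusted p under 0.05 (against 16.2% of all genes), and 13 were below 16 on every array. The 3 epithelial markers summed to 72.3 to 90.7 in PRDM2 KD S48 and 39.3 to 53.1 in GFP S48, and the 4 leukocyte markers to 74.2 to 125 in PRDM2 KD S48 and 123 to 246 in GFP S48. The brightest epithelial marker, Epcam, averaged 69.9 in PRDM2 KD S48 and 35.8 in GFP S48, without overlap (limma adjusted p = 0.0758). The other 2 epithelial markers were below 16 on every array. The probe sets of Epcam and Apoa1 carry the suffix _x_at, which marks probes that may cross-hybridize. Csf1r, the brightest leukocyte marker, averaged 61.9 in PRDM2 KD S48 and 113 in GFP S48. The part of these cell types in the results was not tested.

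**Figure D2:**
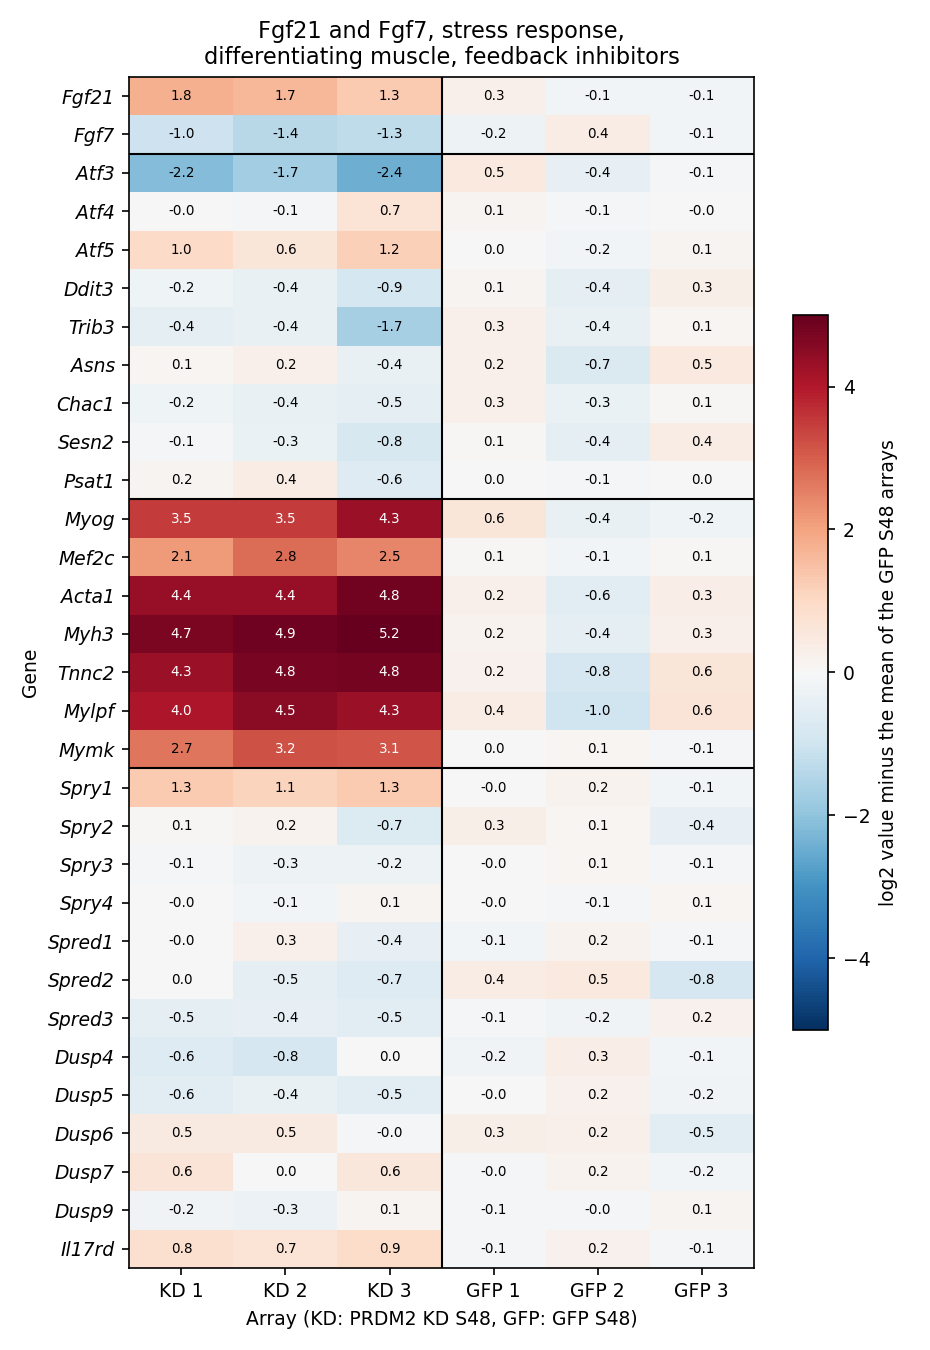
Normalized log2 value of each gene on each array minus its mean over the GFP S48 arrays, with PRDM2 KD S48 arrays on the left. From top to bottom the blocks hold Fgf21 and Fgf7, the stress response genes, the markers of differentiating muscle and the feedback inhibitors. Atf3 is blue and Atf5 red on all PRDM2 KD S48 arrays, the muscle markers are deep red, and among feedback inhibitors Spry1 and Il17rd stand out.

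Fgf7, or keratinocyte growth factor, is made by mesenchymal cells and acts on the epithelial splice form of Fgfr2. It fell at its brighter probe set (1438405_at), which read 49.1, 35.9 and 38.7 on the PRDM2 KD S48 arrays, against 94.3, 160 and 87.9 on the GFP S48 arrays. Every knockdown value was below every control value. The means were 41.2 ± 6.93 in PRDM2 KD S48 and 114 ± 40.1 in GFP S48 (SD, n = 3 each), and the log2 difference was -1.23 (SE 0.187, 95% interval -1.68 to -0.78, limma adjusted p = 0.0274), which is 2.35-fold lower. The difference was -1.28 on the high-spike arrays and -1.14 on the low-spike arrays. The call was less firm than the direction. Without any 1 of the PRDM2 KD S48 arrays, GFP S48 array 1 or GFP S48 array 3 the limma adjusted p was 0.0632 to 0.124, with differences of -1.16 to -1.35, and it ranged from 0.0122 to 0.236 over 20 alternatives.

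The dimmer Fgf7 probe set (1422243_at) pointed the same way without passing. It read 7.50, 10.9 and 10.2 in PRDM2 KD S48 and 12.9, 46.8 and 11.2 in GFP S48, where only GFP S48 array 2 exceeded 16, and the log2 difference was -0.50 (95% interval -1.20 to 0.21, limma adjusted p = 0.653). GFP S48 array 2 had the highest value of both Fgf7 probe sets. Fgf2, the basic FGF that is a classical mitogen of cultured myoblasts, had 1 probe set (1449826_a_at) and was dim throughout. It read 4.67, 3.16 and 4.70 in PRDM2 KD S48 and 1.22, 4.40 and 3.36 in GFP S48. The groups overlapped and the difference was 0.094 (95% interval -0.14 to 0.33, limma adjusted p = 0.831).

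**Figure D3:**
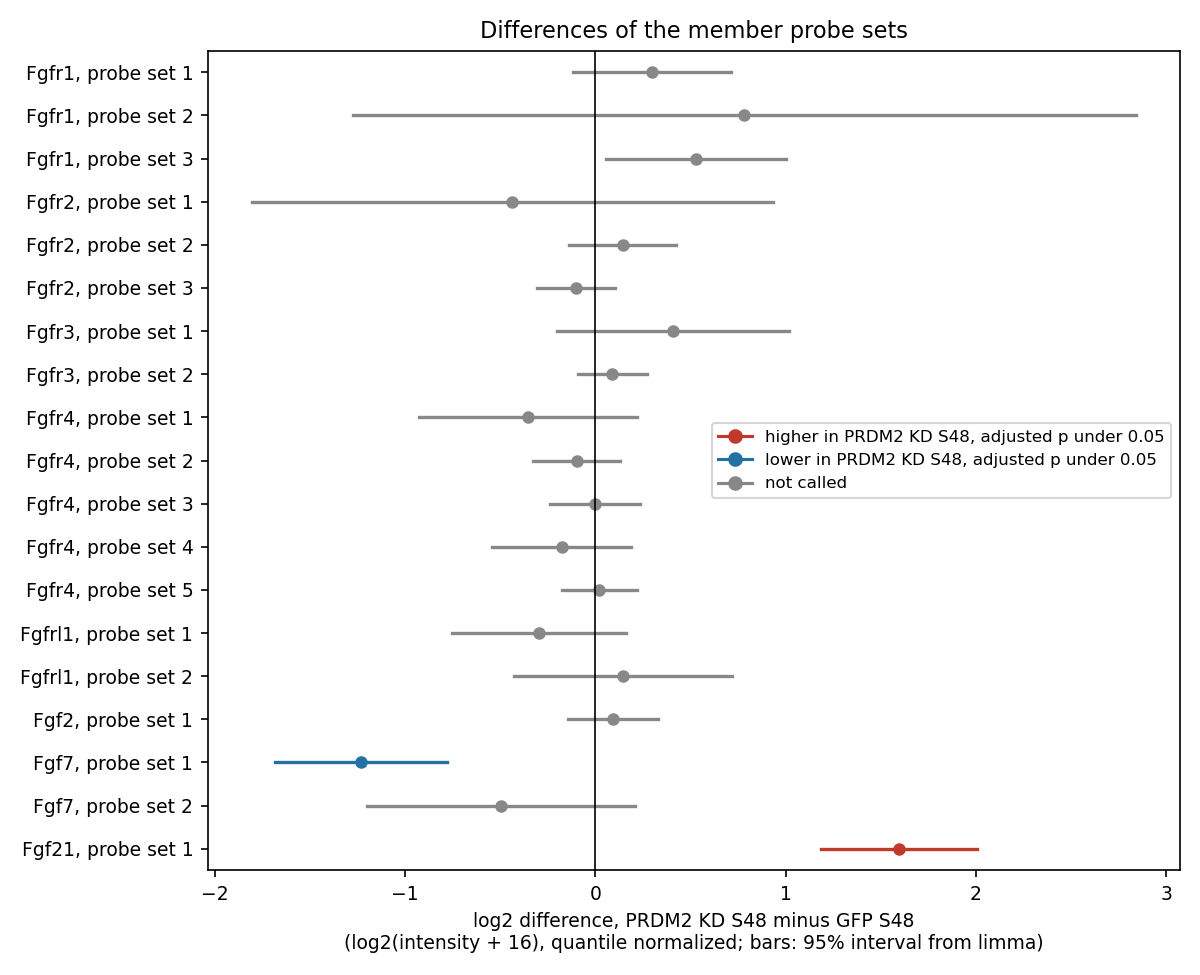
Log2 difference of each of the 19 probe sets, PRDM2 KD S48 minus GFP S48, with its 95% interval from limma, in red where called higher, blue where called lower and grey where not called. Fgf21 stands at 1.59 and Fgf7 probe set 1 at -1.23. The widest intervals are those of Fgfr1 probe set 2 and Fgfr2 probe set 1.

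Fgfr1, the main FGF receptor of myoblasts, had 3 probe sets, all of them above 16 on every array and none called. The brightest (1424050_s_at) read 1133, 822 and 1172 in PRDM2 KD S48 and 772, 971 and 713 in GFP S48. One knockdown array lay within the control range, and the difference was 0.30 (95% interval -0.12 to 0.71, limma adjusted p = 0.644). Its suffix (_s_at) marks probes that several transcripts can share. The dimmest of the 3 (1436551_at) read 130, 65.7 and 100.3 in PRDM2 KD S48 and 58.3, 62.5 and 50.3 in GFP S48. Here the groups did not overlap, and the difference of 0.53 (95% interval 0.056 to 1.00) did not pass after adjustment (limma adjusted p = 0.352, exact permutation p = 0.1). This was the 1 receptor probe set with an unadjusted p under 0.05.

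The middle Fgfr1 probe set (1425911_a_at) varied within the groups by far more than between them. It read 223, 254 and 906 in PRDM2 KD S48 and 187, 663 and 60.1 in GFP S48, and its difference of 0.78 had a 95% interval of -1.27 to 2.84 (limma adjusted p = 0.839). On the high-spike arrays the difference was -0.55, and on the low-spike arrays it was 3.45. Its values moved with the beta-actin 5' to 3' ratio: the highest values were on PRDM2 KD S48 array 3 and GFP S48 array 2, where the ratio was 0.549 and 0.723, and the lowest was on GFP S48 array 3, where it was 0.114. The part of RNA integrity in these values was not tested.

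Fgfr2, whose splice forms bind different FGFs, had 1 probe set above 16 on all arrays (1420847_a_at). It read 38.9, 65.9 and 162 in PRDM2 KD S48 and 67.7, 77.9 and 198 in GFP S48, with a difference of -0.44 (95% interval -1.80 to 0.93, limma adjusted p = 0.871). Array 3 of each group had the highest value, and these were the low-spike arrays; the part of the spike difference was not tested. The difference was -0.39 on the high-spike arrays and -0.52 on the low-spike arrays. The other 2 Fgfr2 probe sets stayed below 16 on every array, with means of 10.1 ± 2.71 and 2.07 ± 0.416 in PRDM2 KD S48 and of 7.93 ± 2.50 and 3.45 ± 1.32 in GFP S48 (SD, n = 3 each).

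**Figure D4:**
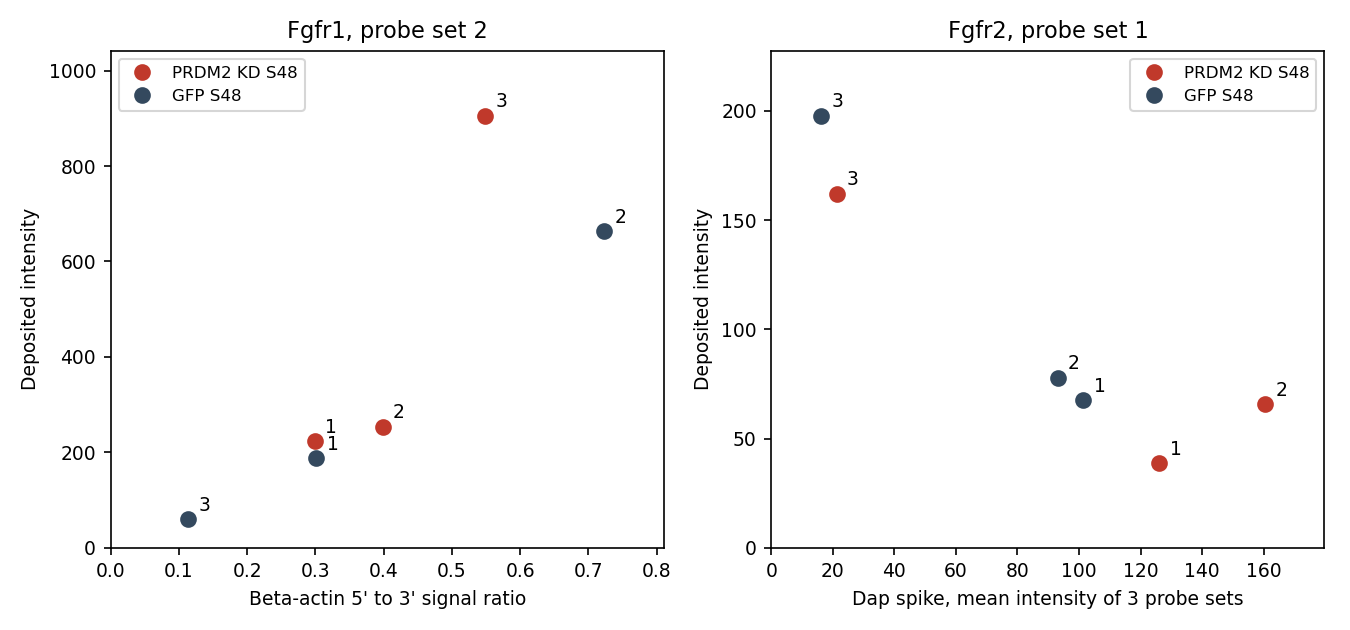
Deposited intensity of Fgfr1 probe set 2 against the beta-actin 5' to 3' ratio (left) and of Fgfr2 probe set 1 against the mean intensity of the Dap spike (right), 1 point per array with its replicate number. Fgfr1 probe set 2 is lowest on GFP S48 array 3, where the actin ratio is 0.114, and Fgfr2 probe set 1 is highest on both arrays of low spike signal.

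Fgfr3 is best known as a brake on bone growth. Its brighter probe set (1421841_at) read 24.7, 18.2 and 17.7 in PRDM2 KD S48 and 23.1, 10.6 and 3.89 in GFP S48. All knockdown values but only 1 control value exceeded 16, yet the ranges overlapped and the difference was 0.41 (95% interval -0.20 to 1.01, limma adjusted p = 0.674). The other Fgfr3 probe set (1425796_a_at) was at or below 3.19 on every array. Its groups did not overlap, with 2.60 to 3.19 in PRDM2 KD S48 and 1.35 to 2.28 in GFP S48, but all values were far below the offset (difference 0.089, limma adjusted p = 0.783).

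Fgfr4, a receptor known from muscle progenitors and regenerating muscle, had 5 probe sets and none was called. The brightest (1427846_x_at) read 24.7, 34.0 and 38.9 in PRDM2 KD S48 and 32.4, 40.8 and 60.6 in GFP S48 (difference -0.35, 95% interval -0.92 to 0.22, limma adjusted p = 0.707). Its suffix (_x_at) marks probes that may cross-hybridize. The dimmest (1427845_at) was at or below 2.73 on all arrays, with a difference of 0.02. The remaining 3 had differences of -0.18 to -0.000985, and at 1418596_at the means were 8.70 ± 1.85 in PRDM2 KD S48 and 8.90 ± 1.32 in GFP S48 (SD, n = 3 each). On each array the log2 value of the brightest Fgfr4 probe set minus that of the brightest Fgfr1 probe set was -4.73, -4.08 and -4.51 in PRDM2 KD S48 and -3.93, -4.12 and -3.30 in GFP S48. The groups overlapped and their means differed by -0.65 (exact two-sided permutation p = 0.2, where 0.1 is the smallest possible with 3 arrays per group). These within-array values serve to compare the groups and are no comparison of the levels of Fgfr4 and Fgfr1.

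Fgfrl1 binds FGF ligands but lacks the kinase domain of the other receptors. Both of its probe sets were above 16 on every array. The brighter (1447878_s_at) read 168, 155 and 104 in PRDM2 KD S48 and 196, 186 and 120 in GFP S48 (difference -0.30, 95% interval -0.76 to 0.16, limma adjusted p = 0.686). Array 3 was the lowest of each group here. The other (1451912_a_at) read 98.1, 77.5 and 93.5 in PRDM2 KD S48 and 97.1, 99.1 and 40.4 in GFP S48, with a difference of 0.14 (95% interval -0.43 to 0.72, limma adjusted p = 0.903). The 2 probe sets differed in sign, and the low value on GFP S48 array 3 coincided with the lowest actin ratio. Without that array the second probe set differed by -0.13. The same array had the lowest Gapdh ratio and the lowest Dap signal, so these cannot be told apart, and their part was not tested.

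The rest of the pathway was read from lists of ligands, co-receptors, heparan sulfate enzymes, adaptors, relay kinases, feedback inhibitors and target genes. The stress response genes, which are not part of the FGF pathway itself, were counted with them, which made 8 lists. Each gene was represented by its probe set of highest mean. Of 104 listed genes 95 were measured, and 4 rose, 2 fell and 89 did not pass, which is 6.32% called. The calls include Atf5 and Atf3 of the stress response list. The other listed genes were not analysed here. Over all 18193 genes 3.92% were called, 2.28% higher and 1.64% lower. The median difference of the 95 genes was -0.0040, against -0.0039 over all genes. No member of 4 lists was called: the 19 other FGF ligands, 10 heparan sulfate enzymes, 11 adaptors and 8 genes of the Ras to ERK relay. In limma 2, 2, 0 and 1 of these had an unadjusted p under 0.05, and over all 8 lists 19 of 95 genes did (20.0%, against 16.2% of all genes). Their brightest genes included the sulfatase gene Sulf2, which averaged 683 ± 128 in PRDM2 KD S48 and 551 ± 172 in GFP S48 (SD, n = 3 each), and the ERK kinase gene Map2k1, with 654 ± 20.4 in PRDM2 KD S48 and 534 ± 193 in GFP S48 (SD, n = 3 each). Ext1, which builds the heparan sulfate chain, had a difference of -0.63 (limma adjusted p = 0.21).

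**Figure D5:**
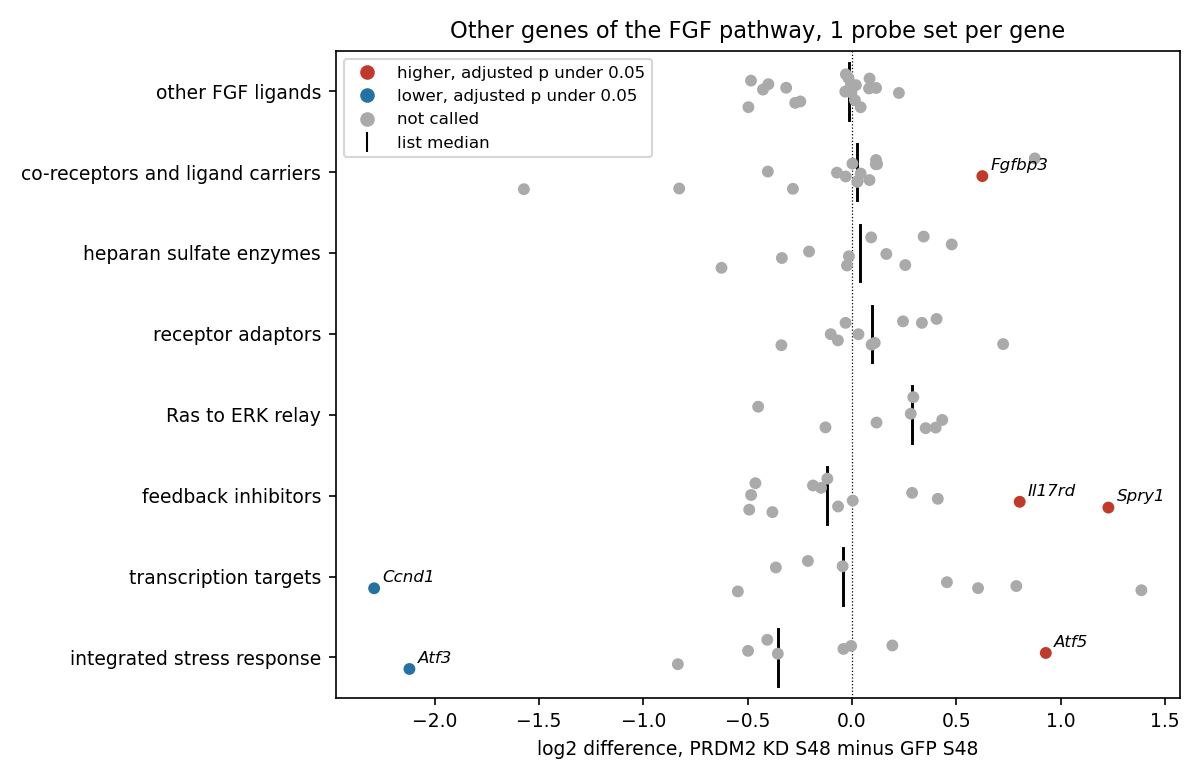
Log2 difference, PRDM2 KD S48 minus GFP S48, of the 95 measured genes of the 8 lists, the stress response list included. Vertical bars are list medians, with red for called higher, blue for called lower and grey for not called. The named points are the 6 called genes, and list medians lie between -0.36 and 0.29.

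Among the other ligands the brightest were Fgf23, a hormone of phosphate balance, and the intracellular FGF homologous factor Fgf11. Fgf23 averaged 89.5 ± 55.2 in PRDM2 KD S48 and 126 ± 82.5 in GFP S48 (difference -0.48, limma adjusted p = 0.843), and Fgf11 averaged 65.1 ± 18.2 in PRDM2 KD S48 and 49.5 ± 1.21 in GFP S48 (difference 0.22, limma adjusted p = 0.736). Of the 19, 11 were below 16 on every array. Klb, the co-receptor that Fgf21 requires, was dim in both groups, with 5.30 ± 1.20 in PRDM2 KD S48 and 5.39 ± 0.532 in GFP S48 (SD, n = 3 each). Of the 16 co-receptors and ligand carriers 1 was called (6.25%, against 3.92% of all genes). In limma 3 had an unadjusted p under 0.05 (18.8%, against 16.2% of all genes). Sdc3 averaged 255 in PRDM2 KD S48 and 787 in GFP S48 (difference -1.57, limma adjusted p = 0.0788). Flrt2 averaged 136 in PRDM2 KD S48 and 64.1 in GFP S48 (difference 0.88, limma adjusted p = 0.069). Neither passed, although their groups did not overlap. The called gene was Fgfbp3, a carrier that releases FGFs from heparan sulfate. It read 24.6, 21.6 and 21.3 in PRDM2 KD S48 and 9.49, 9.66 and 8.12 in GFP S48, a rise of 0.63 (SE 0.0827, limma adjusted p = 0.0177), and its adjusted p was 0.0522 to 0.0827 when any 1 array was left out. Its intensities lay near or below the offset, so its size ran from 0.25 with an offset of 64 to 1.24 with an offset of 1, and its adjusted p was 0.0593 when only probe sets with a group mean of at least 16 were tested.

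Of 13 feedback inhibitors 2 rose (15.4% called, against 3.92% of all genes) and 11 did not pass. In limma 4 had an unadjusted p under 0.05 (30.8%, against 16.2% of all genes). These 4 included Dusp5 and Spred3, which were lower by 0.49 and 0.46 and did not pass (limma adjusted p = 0.15 and 0.151). Of the 13 differences 5 were above 0, and the list median was -0.12. Spry1, a Sprouty protein that dampens signalling from FGF receptors to ERK, read 66.1, 54.5 and 64.9 in PRDM2 KD S48 and 15.7, 22.4 and 12.7 in GFP S48, a rise of 1.23 (SE 0.11, limma adjusted p = 0.00459). Il17rd, the membrane antagonist Sef that binds FGF receptors, read 22.3, 21.2 and 26.8 in PRDM2 KD S48 and 5.10, 10.9 and 4.85 in GFP S48. It rose by 0.80 (SE 0.123, limma adjusted p = 0.028), with an adjusted p of 0.081 to 0.125 without any 1 of the PRDM2 KD S48 arrays, GFP S48 array 1 or GFP S48 array 3. The mean of its probe sets differed by 0.42 (limma adjusted p = 0.0908). The call was also lost with the high-spike and low-spike arrays as blocks (limma adjusted p = 0.055) and with the Gapdh ratio as a covariate (0.0642). Its size ran from 0.31 with an offset of 64 to 1.73 with an offset of 1. Dusp6, the ERK phosphatase often read as a marker of FGF signalling, averaged 172 ± 36.4 in PRDM2 KD S48 and 135 ± 53.8 in GFP S48 (SD, n = 3 each; difference 0.29, 95% interval -0.35 to 0.93, limma adjusted p = 0.802).

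Among 9 measured target genes of the pathway only Ccnd1, the G1 cyclin that mitogens induce, was called (11.1%, against 3.92% of all genes), and 5 had an unadjusted p under 0.05 (55.6%, against 16.2% of all genes). It read 99.7, 58.9 and 61.2 in PRDM2 KD S48 and 421, 429 and 325 in GFP S48, a fall of 2.29 on the log2 scale (SE 0.168, limma adjusted p = 0.0022). The ETS factors Etv4 and Etv5, both targets of FGF signalling, had differences of -0.55 and 0.60 and did not pass (limma adjusted p = 0.121 and 0.252). Egr1, an immediate early gene, read 726, 862 and 423 in PRDM2 KD S48 and 168, 299 and 216 in GFP S48, and the difference of 1.39 did not pass either (limma adjusted p = 0.0923), although the groups did not overlap. These 3, Dusp6 and Klb were chosen for their roles after their values were seen.

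The genes whose profile over the 6 arrays was most like that of the changed members were taken from 9095 genes brighter than the median gene, by Pearson correlation of normalized log2 values, given as a description. For Fgf21 these were Camk2n1, an inhibitor of CaM kinase II (r = 0.997), Mitf, a basic helix-loop-helix factor (r = 0.996), and Tbx18, a T-box factor (r = 0.996). Camk2n1 read 165, 144 and 106 in PRDM2 KD S48 and 31.6, 24.9 and 22.7 in GFP S48. Array 3 was the lowest of the PRDM2 KD S48 group, as for Fgf21. All 3 were called higher, by 1.79, 0.60 and 1.26 (limma adjusted p = 0.00495, 0.0483 and 0.011). The call of Mitf was lost without any 1 array, and that of Tbx18 without PRDM2 KD S48 array 1 or 2 (limma adjusted p = 0.064 and 0.0579). For Fgf7 they were the deacetylase gene Hdac6 (r = 0.996), the ubiquitin ligase gene Smurf1 (r = 0.994) and Tubb3, a neuronal tubulin (r = 0.993). Hdac6 read 66.4, 53.5 and 54.9 in PRDM2 KD S48 and 88.2, 129 and 85.7 in GFP S48, with GFP S48 array 2 the highest as for Fgf7, and did not pass (difference -0.72, limma adjusted p = 0.058). Smurf1 did not pass either (difference -0.51, limma adjusted p = 0.0667), whereas Tubb3 fell by 0.96 (limma adjusted p = 0.0324), a call lost under 12 of 20 alternatives. Part of every such correlation is the difference between the groups that the 6 arrays share.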

How the data were processed

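Total RNA of 6 C2C12 samples, 3 PRDM2 KD S48 and 3 GFP S48, was labelled from 8 µg and hybridized to Affymetrix mouse arrays, per the labels. The deposited values are 1 linear intensity per probe set and array; the submitters' processing notes list GCOS and PLIER, while the background correction and the scaling between arrays are not given in the sources used here. There were 45101 probe sets in all. Intensities were quantile normalized, since the interquartile ranges of log2(intensity + 16) differed by 15.0% between arrays, and compared in R 4.3.3 with limma 3.58.1 (lmFit, eBayes, Benjamini-Hochberg adjustment) over 45037 probe sets, without 64 controls. The fit was tested on simulated data.

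Gene names came from the platform annotation, with 34945 probe sets of 1 symbol, 932 of several and 9160 of none. Of the first, 34741 matched the GRCm38.p6 gene table by Entrez identifier and 0 symbols changed. The rule for named genes took all members, Prdm2, up to 4 called genes per list or the 2 brightest where none was called, and 3 genes like each changed member. Some named genes lay outside this rule and were chosen with their values known. Among them were Sdc3, Flrt2, Dusp5, Spred3, Itga7 and Des. The members and lists were chosen with earlier results of these data known. Same-numbered arrays did not deviate together in all pairs (correlations of 0.36, 0.096 and 0.0055), so numbers were not used as pairs.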

Additional observations from a re-analysis of the deposited data

How the results depend on the processing

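All settings of this section were planned. Across 20 of them, 320 of 351 differences of member probe sets kept their direction and side of the threshold, 15 lost the call and 16 changed sign. Fgf21 lost its call with ordinary statistics (limma without moderation, adjusted p = 0.107) and with only the arrays of higher spike signal (0.0723), where fewer arrays entered, and its difference ranged from 0.69 to 3.08. Fgf7 lost its call under 13 settings while its difference stayed between -1.51 and -0.79. The cause was not tested for any of these, beyond the fewer samples named.

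The count of member probe sets called higher was 1 in all settings but those 2, where it was 0, and 1 in every fit that left out an array. The count called lower was 0 without further normalization, with an offset of 64, with the mean of a gene's probe sets and with ordinary statistics. It was also 0 with the replicate block, with the high-spike and low-spike arrays as blocks, with only the arrays of higher spike signal and with the Gapdh 5' to 3' covariate. When an array was left out it was 0 to 1. Of all probe sets, 157 were called with ordinary statistics, 1987 with array weights, 584 with the replicate block, 184 with only the arrays of higher spike signal and 384 to 902 without 1 array. Pathway genes called higher numbered 0 with ordinary statistics and with the higher spike arrays, 2 with the replicate block and with the Gapdh covariate, and 1 to 2 without 1 array; those called lower numbered 0, 0, 6 with array weights, 1 with the replicate block, and 1 to 3. The replicate block, which the array numbers do not justify as a pairing, ended the calls of Fgf7, Fgfbp3, Il17rd and Atf3 (adjusted p = 0.0974, 0.0697, 0.103 and 0.0615).

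Signs changed only for differences that had not been called. With only the arrays of higher spike signal Fgfr1 at 1425911_a_at was -0.56, Fgfrl1 at 1451912_a_at -0.16 and Map2k1 -0.0011; Fgfrl1 was -0.014 with array weights, -0.062 with the Gapdh covariate and -0.13 without GFP S48 array 3 (up to 0.29 without another array). Without 1 array Fgfr2 at 1420847_a_at ranged from -0.90 to 0.069 and Fgf23 from -0.88 to 0.048, both positive without GFP S48 array 3. Fgfr4 at 1418596_at was 0.0048 with a common median, 6.0e-06 with an offset of 64, 0.0094 with the Gapdh covariate and -0.063 to 0.054 without 1 array (0.0050 without PRDM2 KD S48 array 1, 0.037 and 0.0080 without GFP S48 array 1 and 3). Fgfr4 at 1427845_at was -0.019 with array weights and -0.0094 to 0.061 without 1 array (-0.0026 without PRDM2 KD S48 array 3). Ptpn11 was 0.015 without further normalization, 0.032 with a common median and 0.039 without PRDM2 KD S48 array 2. Of the calls, 64.1% were higher without further normalization and 64.9% with a common median, against 58.2% in the report. The 7 member probe sets below 16 on every array carry little signal over background.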
